A study of Mus musculus with 86 samples.

Results

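The genes described here encode the proteasome, its activators, its inhibitor and its assembly chaperones in 2 mouse leg muscles. They are the rows of the expected-count table whose symbols run from Psma to Psmg and number a subunit or factor, and whose mean over the 86 libraries was at least 1 CPM, the count scaled to library size. The symbol rule found 48 of the 42807 rows, and 46 of these reached that mean. The 2 left out were Psma8 and Psmb11, the subunits special to testis and thymus. The 46 comprised 7 alpha ring and 7 constitutive beta ring genes of the 20S core, 3 immune beta genes, and 6 ATPase and 14 non-ATPase genes of the 19S cap. The others were 4 activators, 1 inhibitor and 4 assembly chaperones with Psmg symbols. The 14 were grouped by their Psmd symbols and include chaperones of 19S base assembly, such as Psmd5 and Psmd10. These chaperones are also counted in the sums of 34 core genes given below.

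The proteasome is the chamber in which cells degrade ubiquitin-tagged proteins. Alpha and beta rings stack into the 20S core, whose beta1, beta2 and beta5 subunits cut peptides, and the 19S cap recognises, unfolds and threads the substrate. In muscle it degrades contractile proteins during atrophy, downstream of ubiquitin ligases such as atrogin-1 (Fbxo32) and MuRF1 (Trim63). Immune beta subunits replace the constitutive catalytic ones mainly in immune cells and after interferon.

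RNA was sequenced from gastrocnemius (GA), where fast fibres prevail, and soleus (SO), which is richer in slow ones, of male C57BL/6N mice 10 weeks old. The comparisons ask what dexamethasone (DEX), a synthetic glucocorticoid, did to the muscles, and whether Jakyak-gamcho-tang (JGT), a peony and liquorice extract, altered that. Each muscle had 43 libraries in 9 groups, with 4 mice in the DEX group and in JGT04 at 400 mg/kg and 5 in each other group. Total counts were 18.8 to 34.6 M per library. Non-treated mice (NT) received buffer, and every other group received DEX by intraperitoneal injection at 25 mg/kg daily for 10 days. The peony to liquorice ratio was 2:1 in JGT02, 1:1 in JGT03 and 1:2 in JGT04. Mice took 100 or 400 mg/kg of an extract by gavage 30 minutes after the injection. Resveratrol (RSV), a plant polyphenol, was given at 200 mg/kg. The gavage of NT and DEX mice was buffer, and that of the treated mice was the drug in a cellulose vehicle, so treatment and vehicle cannot be told apart. The protocol speaks of 5 groups of mice, while the samples form 9.

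The libraries matched their muscle by fibre markers, with exceptions. Fast myosin Myh4 had a median of 46287 CPM in GA and 554 CPM in SO, and slow myosin Myh7 had 347 and 6807 CPM. Of the library labelled SO JGT02 400 mg/kg mouse 1, Myh7 was at 14.4 CPM and Mss51, a gene of fast fibres, at 544 CPM, while the other 4 libraries of that group had 5616 to 7342 and 2.93 to 8.68 CPM. Mouse 1 of the GA group and mouse 5 of the SO group given JGT02 at 100 mg/kg stood apart as well: 14 immune markers, of which 13 are in the table, summed to 882 and 988 CPM, and embryonic myosin Myh3 reached 1239 and 1065 CPM. Their Myh7 stood at 6.17 and 27.3 CPM, against 208 to 342 CPM and 6788 to 9138 CPM in the rest of their groups. The next highest immune sums were 105 CPM in GA, in NT mouse 3, and 310 CPM in SO, in DEX mouse 4. Counts of called genes are given with all libraries and without these 3. The titles place all 86 libraries in 1 batch. Earlier work on these values divided them, in listed order, into 3 sets of 32, 28 and 26, which are not in the labels. The sets were placed at breaks in expression between mice 3 and 4 of GA JGT04 100 mg/kg and of SO JGT02 400 mg/kg, so they come from the data and not from a record of the work. In GA, JGT04 400 mg/kg and RSV lie in set 2, JGT04 100 mg/kg in sets 1 and 2, and the other groups in set 1. In SO, NT, DEX and JGT02 100 mg/kg lie in set 2, JGT02 400 mg/kg in sets 2 and 3, and all JGT03, JGT04 and RSV libraries in set 3. In whole muscle, fewer cells of a type and less RNA per cell cannot be told apart.

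Proteasome promoters can carry antioxidant response elements, through which the factor Nrf1 (Nfe2l1) restores proteasome synthesis. Of the members, 39 had a 300-base promoter in the RefSeq table of build GRCm38.p6, with 42 promoters in all. The core of that element, TGACNNNGC read on both strands, was in 14.3% of these and in 12.4% of all 32851 promoters. An interferon-type element, GAAA repeated after any 2 bases and read on both strands, was in 11.9% against 3.44%. Its matches were in Psmb3, Psmd4, Psmd9, Psme1 and Psmg4, and not in the immune gene Psmb9. The GC box GGGCGG was in 57.1% against 35.7%. CCAAT was in 30.95% against 37.4%. The core of the glucocorticoid receptor palindrome, ACANNNTGT, was in 0% against 6.85%, which says only that these letters are not in the windows. The 120 bases before the start of 4 genes are shown, with matches in capitals. Psmb5 and Psmb6 encode the catalytic subunits beta5 and beta1 and hold the antioxidant core. Psmd8 encodes a 19S lid subunit that rose with DEX in both muscles, and its capitals mark the GC box. Psmb9 encodes the immune subunit beta1i, and its capitals mark the GC box and CCAAT read on the other strand. The windows are chr14:54617996-54618115, minus strand, for Psmb5, chr11:70525237-70525356, plus strand, for Psmb6, chr7:29180674-29180793, minus strand, for Psmd8, and chr17:34187331-34187450, minus strand, for Psmb9.
Psmb5: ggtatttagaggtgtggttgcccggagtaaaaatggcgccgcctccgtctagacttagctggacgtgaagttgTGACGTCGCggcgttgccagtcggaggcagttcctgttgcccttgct
Psmb6: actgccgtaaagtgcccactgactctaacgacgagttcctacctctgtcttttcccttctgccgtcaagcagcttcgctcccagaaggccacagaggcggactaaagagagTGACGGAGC
Psmd8: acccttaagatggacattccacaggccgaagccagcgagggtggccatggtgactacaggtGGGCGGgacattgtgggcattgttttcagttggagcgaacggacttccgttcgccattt
Psmb9: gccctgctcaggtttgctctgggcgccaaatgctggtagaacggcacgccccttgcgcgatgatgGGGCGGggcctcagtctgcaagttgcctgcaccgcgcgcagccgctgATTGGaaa

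Per kilobase of principal transcript, untreated muscle held far more core than immune or chaperone transcript. In GA the median over genes was 79.8 CPM per kb for the constitutive beta ring, 56.7 for the 19S ATPases, 47.7 for the 19S non-ATPases, 47.4 for the alpha ring and 22.1 for the activators. It was 5.25 CPM per kb for the assembly chaperones and 3.16 for the immune beta genes, and the inhibitor Psmf1 stood at 5.72. The highest single gene in both muscles was Psmb7, which encodes the catalytic subunit beta2, at 166 ± 8.5 CPM per kb in GA and 142 ± 5.8 in SO (SD, n = 5). Exons of Psmb7 overlap those of Nek6, which runs in the opposite direction, and whether the authors counted by strand is not given in the sources used here. The lowest was Psmb9, at 2.04 ± 1.6 CPM per kb in GA and 2.54 ± 1.1 in SO. Psmd5 and Psmd10, chaperones that help the 19S base assemble, stood at 3.65 ± 0.15 and 4.28 ± 0.39 CPM per kb in GA, below the other 19S genes.

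**Figure D1:**
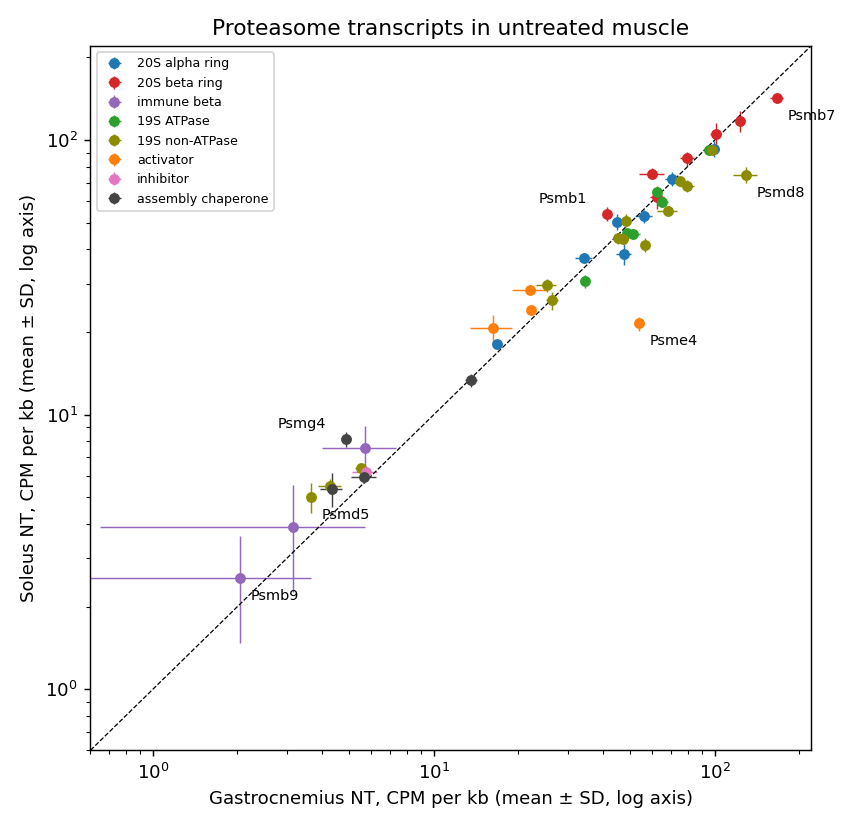
Level of each of the 46 genes in non-treated soleus (vertical, CPM per kb, log axis) against non-treated gastrocnemius (horizontal), as mean ± SD of 5 mice, coloured by role, with equality as the dashed line. Most genes lie close to the line, Psme4 and Psmd8 lie below it, and Psmg4 lies above it.

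Untreated SO and GA differed most in Psme4, which encodes PA200, an activator that caps the core without ATP, and in Psmd8. Both were lower in SO. Of the 46 genes 12 were higher and 7 lower in SO at an adjusted p under 0.05, in a fit that called 45.8% of all 15327 genes tested, so the members' share of 41.3% was near that of all genes. Without the 3 libraries the numbers were 13 and 10, beside 58.1% of all genes, and with a term for the set they were 6 and 3, beside 22.7%. All GA NT libraries lie in set 1 and all SO NT libraries in set 2, so this comparison runs across sets. Of the genes named below as higher in SO, a result with the set term is given only for Psmg4. Some of the others may not pass with it.

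Psme4 (chr11:30771726-30880361, plus strand, GRCm38) was at 354, 358, 339, 331 and 356 CPM in the 5 GA libraries and at 139, 141, 131, 153 and 135 CPM in the 5 SO libraries. The groups did not overlap, and SO held 0.401 of the GA level (log2 fold change -1.32 ± 0.15 SE, adjusted p = 7.02e-12). Psmd8 (chr7:29174188-29180701, minus strand) was at 197, 181, 178, 199 and 227 CPM in GA and at 119, 120.4, 117, 102 and 111 CPM in SO. These groups did not overlap either, with a log2 fold change of -0.79 ± 0.10 (adjusted p = 3.36e-10). Psmd1, the large 19S scaffold subunit, was lower in SO as well (-0.44 ± 0.08, adjusted p = 1.45e-06).

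The highest log2 fold change was that of Psmg4, a chaperone of alpha ring assembly, with 2.55 to 2.86 CPM in GA and 4.21 to 4.91 CPM in SO (0.74 ± 0.15, adjusted p = 2.36e-05). With the set term its adjusted p was 0.112. Other genes higher in SO were Psmb1 and Psmb4, structural beta subunits (0.37 ± 0.07 and 0.34 ± 0.07), the base chaperone Psmd5 (0.46 ± 0.10), the lid gene Psmd13 (0.23 ± 0.05) and Psme1, the alpha subunit of the PA28 activator (0.37 ± 0.08). Psmb10, the immune beta2 subunit, was 0.41 ± 0.16 higher, and this passed in only 3 of 10 fits that left out 1 library (lost without GA NT mouse 1, 2, 4 or 5 or SO NT mouse 1, 2 or 3). Among the panel genes, Psme2 (0.35) and Psma1 (0.17) were also higher in SO. The first was lost without GA NT mouse 4 or 5 or SO NT mouse 3, the other without SO NT mouse 2 or 5. Differences for Psmb5, Psmb8, Psmb9, Psmd11 and Psmc4 did not pass.

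In GA, DEX changed 5 of the 46 proteasome genes, a share of 10.9% that was near that of all genes. The 34 core genes summed to 3049.5 ± 107 CPM in NT (SD, n = 5) and 3173 ± 32 CPM in DEX (n = 4), which is 104% of the NT mean. Psmd8, Psmc5 and Psmd13, all of the 19S cap, rose, and Psma1, an alpha ring gene, and Psme1 fell. These 3 higher and 2 lower genes compare with 8.38% of all 14484 genes called. Leaving out the 3 libraries, 5 members rose and 5 fell, beside 26.4% of all genes. The median log2 fold change was -0.00 over the members and -0.01 over all genes.

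Psmd8 was at 192, 177, 177, 194 and 225 CPM in the NT libraries and at 259, 268, 291 and 245 CPM with DEX. All DEX libraries lay above all NT libraries (log2 fold change 0.46 ± 0.10, adjusted p = 0.00202). Psmc5, an ATPase of the ring that unfolds substrates, was at 88.7, 84.1, 85.99, 82.7 and 78.8 CPM in NT and at 98.6, 96.7, 100.1 and 101 CPM with DEX. Again the groups did not overlap (0.24 ± 0.06, adjusted p = 0.00683). The calls for Psmd8 and Psmc5 held in 9 of 9 fits that left out 1 library. Psmd13 was at 53.5, 50.0, 49.2, 49.9 and 43.4 CPM in NT and at 54.2, 55.1, 53.3 and 58.5 CPM with DEX. NT mouse 1 lay within the DEX range (0.17 ± 0.05, adjusted p = 0.0197), and the call was lost without DEX mouse 4 (NT mouse 5 likewise), with adjusted p up to 0.0876. Exons of Psmd13 overlap those of Sirt3 on the other strand.

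Psma1 was at 52.6, 53.2, 52.1, 50.6 and 55.6 CPM in NT and at 45.3, 42.2, 40.9 and 51.8 CPM with DEX. DEX mouse 4 was within the NT range and the other 3 were below it (-0.23 ± 0.07, adjusted p = 0.0321). Psme1 was at 20.3, 24.1, 29.8, 23.9 and 22.4 CPM in NT and at 18.3, 19.96, 20.6 and 19.9 CPM with DEX. NT mouse 3 was the highest, and NT mouse 1 lay within the DEX range (-0.29 ± 0.09, adjusted p = 0.0316). Each of these falls passed in 3 of 9 fits without 1 library. For Psma1 it was lost without NT mouse 1, 2 or 5 or DEX mouse 1, 2 or 3, and for Psme1 without NT mouse 2, 3 or 4 or DEX mouse 1, 2 or 4, at adjusted p up to 0.161 and 0.148. Without NT mouse 3 the change of Psme1 was -0.20.

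The immune beta genes showed the largest difference in GA, but it rested on 1 library. Psmb9 was at 1.66, 1.59, 6.58, 1.48 and 2.30 CPM in NT and at 1.21, 1.64, 1.78 and 0.943 CPM with DEX. Its log2 fold change of -0.96 ± 0.40 (adjusted p = 0.144) became -0.34 without NT mouse 3, and that of Psmb8, the immune beta5 subunit, went from -0.56 ± 0.37 to 0.07. Exons of Psmb9 overlap those of Tap1 on the other strand. NT mouse 3 also had the highest immune marker sum of the group, 105 CPM against 64.1 to 94.8 CPM in the other 4. The DEX libraries had 30.4 to 47.7 CPM, with 3 of 10 tested immune markers lower in DEX, while Cd3e was at 0 in 33 of the 43 GA libraries. Markers of other cells moved as well: 4 of 5 adipocyte markers were called higher (summed 179 to 232 CPM in DEX against 132 to 164 in NT), 3 of 9 endothelial markers lower (272 to 290 against 321 to 345 CPM) and 3 of 6 fibroblast and tendon markers lower (354 to 457 against 627 to 856 CPM). The part of these cells in the GA differences was not tested. Without the 3 libraries Psmb9 passed, at an adjusted p of 0.0447.

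**Figure D2:**
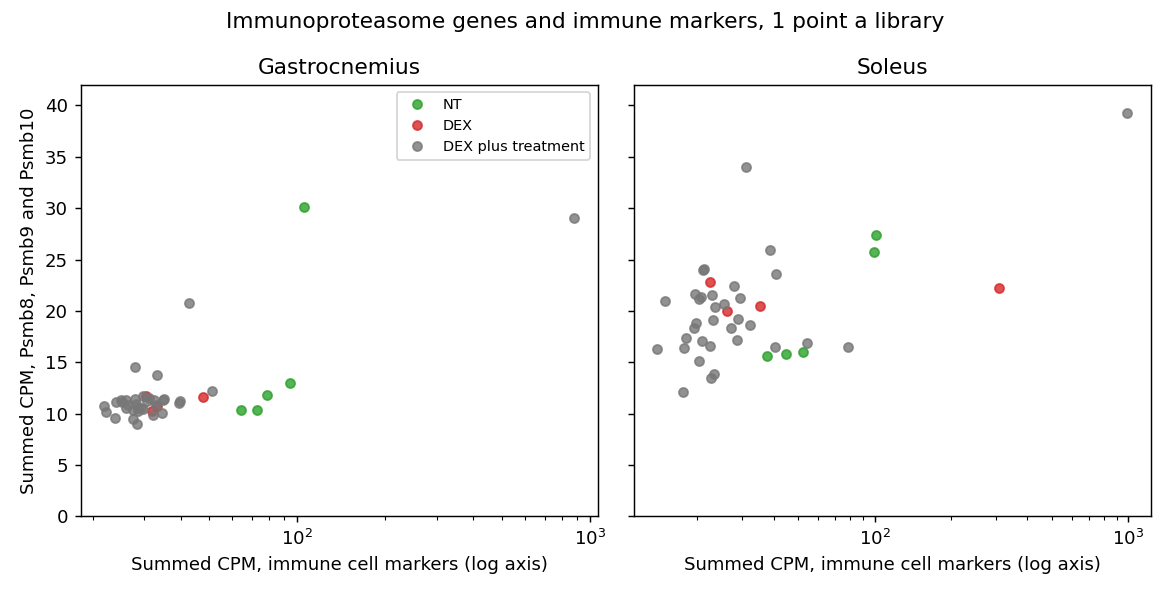
Summed CPM of Psmb8, Psmb9 and Psmb10 (vertical) against the summed CPM of the immune markers (horizontal, log axis) in the 43 libraries of each muscle, with non-treated, DEX and treated libraries in separate colours. Most GA libraries lie near 11 CPM, with NT mouse 3 at 30.1 and JGT02 100 mg/kg mouse 1 at 29.0, and SO ranges from 12.1 to 39.3.

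Psme4 was at 323 to 352 CPM in GA NT and at 371 to 431 CPM with DEX. The groups did not overlap, yet the difference of 0.22 ± 0.15 did not pass (adjusted p = 0.429) and did so without the 3 libraries (adjusted p = 0.00581). The common dispersion of the GA fit fell from 0.0379 to 0.00699 without these libraries. Of the panel, Psmb5 (-0.14 ± 0.06, adjusted p = 0.177), Psmb10 (-0.23), Psme2 (-0.04), Psmd11 (-0.06) and Psmc4 (-0.02) did not pass. Psmb5 shares 71.7% of its 31-base words with the gene Gm3375, which has no row in the table, and Psme2 shares 33.5% of its own with Psme2b, so their counts are uncertain.

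In SO, DEX lowered 4 proteasome genes and raised 1. Psmf1, which encodes the inhibitor PI31, Psme3, which encodes the nuclear activator PA28 gamma, the ATPase gene Psmc6 and the base chaperone Psmd10 fell, and Psmd8 rose as in GA. The 1 higher and 4 lower members compare with 20.8% of all 14811 genes called, and 2 and 8 without the 3 libraries compare with 43.2%. The core summed to 2953 ± 74 CPM in NT and 2897 ± 153 CPM in DEX, which is 98.1% of NT, and the median log2 fold change was -0.06 over the members and 0.05 over all genes.

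Psmf1 (chr2:151715812-151744186, minus strand) was at 17.3, 16.0, 17.2, 16.3 and 15.3 CPM in NT and at 14.5, 12.2, 13.1 and 13.8 CPM with DEX. All DEX libraries lay below all NT libraries (-0.30 ± 0.07, adjusted p = 0.00301), and the call held in 9 of 9 fits without 1 library. Psme3 was at 67.0, 64.6, 65.0, 63.5 and 67.4 CPM in NT and at 51.4, 53.0, 48.4 and 64.0 CPM with DEX. DEX mouse 4 lay within the NT range (-0.27 ± 0.08, adjusted p = 0.0146). Psmc6 was at 69.2, 71.6, 71.7, 63.7 and 73.7 CPM in NT and at 56.0, 57.1, 52.4 and 66.7 CPM with DEX. Here too DEX mouse 4 was the only DEX library within the NT range (-0.27 ± 0.08, adjusted p = 0.0122). The call for Psme3 was lost without DEX mouse 1 or 3, and that for Psmc6 without DEX mouse 3.

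Psmd10 was at 8.03, 7.32, 7.94, 8.24 and 8.68 CPM in NT and at 5.81, 6.66, 6.49 and 7.57 CPM with DEX. DEX mouse 4 lay above the lowest NT library (-0.28 ± 0.09, adjusted p = 0.0329), and the call was lost in 5 of 9 fits, without DEX mouse 1, 2 or 3 or NT mouse 4 or 5. Psmd8 was at 121, 123, 119.6, 104 and 114 CPM in NT and at 144, 146, 120.1 and 169 CPM with DEX. DEX mouse 3 lay within the NT range (0.31 ± 0.10, adjusted p = 0.0198), and the call was lost without DEX mouse 4 or NT mouse 4. DEX mouse 4 differed from the other 3 DEX libraries in markers too, with 310 CPM of immune markers against 22.6 to 35.3 CPM, and 233 CPM of 5 adipocyte markers against 548 to 665 CPM. All 5 adipocyte and all 5 Schwann cell and nerve markers were called higher in DEX, with summed ranges of 233 to 665 and 53.3 to 556 CPM against 216 to 249 and 58.3 to 122 CPM in NT. Of 9 endothelial markers 4 were called higher, with a sum of 484 to 658 CPM in DEX and 358 to 459 CPM in NT. Their part in the proteasome differences was not tested.

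Psme4 went the other way from GA, with 142, 144, 134, 156 and 138 CPM in NT and 122, 118.5, 111.5 and 102 CPM with DEX. All DEX libraries lay below NT, but the difference of -0.33 ± 0.14 did not pass (adjusted p = 0.0901) except without the 3 libraries (adjusted p = 0.00012). The panel genes Psmb5 (-0.01), Psmb8 (0.10), Psmb9 (-0.43), Psmb10 (0.23), Psme1 (-0.19), Psme2 (0.18), Psmd11 (-0.09), Psmc4 (0.06) and Psma1 (-0.10) did not pass.

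**Figure D3:**
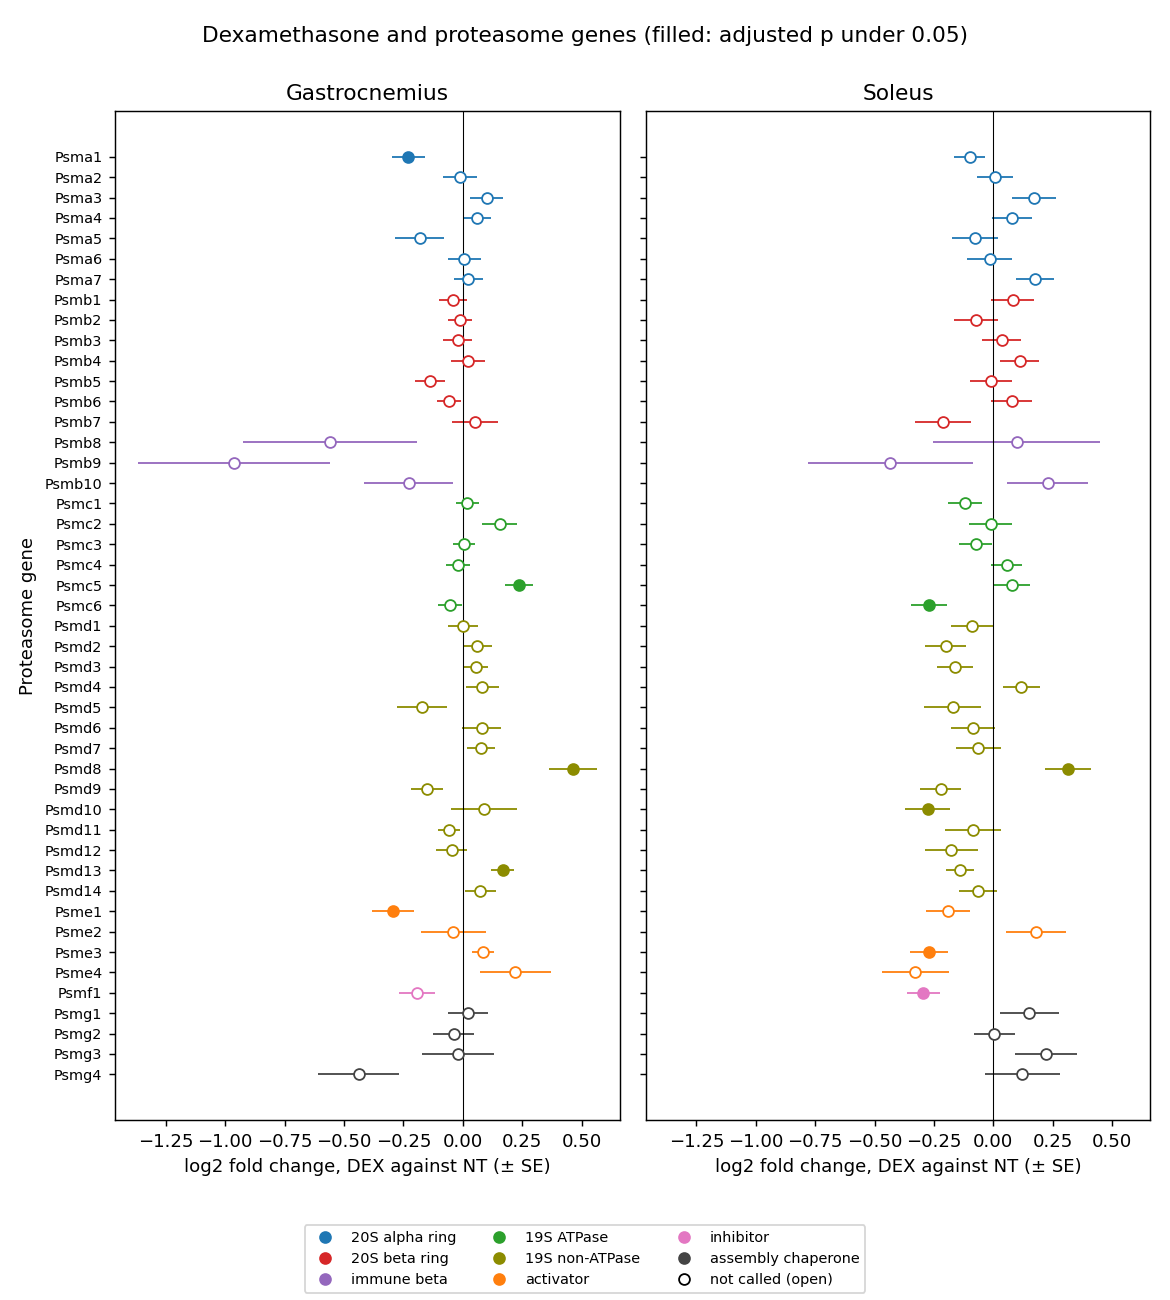
Log2 fold change of DEX against NT with its SE for the 46 genes, ordered and coloured by role, in gastrocnemius (left) and soleus (right), with filled points at an adjusted p under 0.05. Psmd8 is filled on the right side of 0 in both muscles, at 0.46 and 0.31, and the widest bars are those of Psmb8 and Psmb9.

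The DEX change itself differed between the muscles for Psmd13 and Psme3, the 2 members called in the test of the interaction, beside 8.36% of all genes. The change of Psmd13 was 0.33 lower in SO than in GA on the log2 scale (-0.33 ± 0.07, adjusted p = 0.00269). It was at 55.7, 59.3, 63.8, 59.6 and 63.1 CPM in SO NT and at 58.3, 56.4, 50.6 and 53.7 CPM in SO DEX, where the groups overlap. The change of Psme3 was -0.38 ± 0.09 apart (adjusted p = 0.00724). Psme3 stood in GA at 56.4 to 59.6 CPM in NT and at 58.9 to 66.0 CPM with DEX. Both differences held in 18 of 18 fits without 1 library. After leaving out the 3 libraries, 13 members had a lower change in SO and 1, Psmg4, a higher one, beside 33.6% of all genes. Among the 13 was Psme4, at -0.60 (adjusted p = 6.16e-07), which with all libraries was -0.57 ± 0.22 (adjusted p = 0.0855). The changes of Psmd8, 0.46 in GA and 0.31 in SO, differed by -0.17 ± 0.15, which did not pass (adjusted p = 0.478).

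Genes that tag or deliver substrates also changed with DEX. Fbxo32 and Trim63 fell in both muscles, by 1.12 and 0.80 on the log2 scale in GA and by 0.99 and 0.50 in SO. Of 15 ubiquitin and shuttle genes 2 rose in GA and 5 fell in SO. The ubiquitin-activating enzyme gene Uba1 rose in GA (0.14 ± 0.04) and fell in SO (-0.28 ± 0.08), and the shuttle factor gene Rad23b did likewise (0.21 ± 0.06 and -0.22 ± 0.07). Of 8 genes that control proteasome synthesis 1 rose in GA, Nfe2l2 (0.29 ± 0.09), and 1 fell in SO, Vcp (-0.34 ± 0.08). Of 12 tested proteasome-associated genes 0 were called in GA and 2 fell in SO, the ligase gene Ube3c (-0.40 ± 0.10) and the deubiquitinase gene Usp14 (-0.21 ± 0.07).

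In GA, adding an extract or RSV to DEX gave a called proteasome gene in 1 of 7 groups. Psmg4 was called higher with JGT02 at 100 mg/kg, 1 of 46 beside 10.2% of all genes. It was at 1.91, 1.74, 1.70 and 2.46 CPM in DEX and at 4.85, 2.83, 2.18, 2.04 and 2.45 CPM with the extract (0.57 ± 0.17, adjusted p = 0.0328). The highest value was that of mouse 1, the library with 882 CPM of immune markers, and without the 3 libraries the adjusted p was 0.352, with 0 members called beside 0.963% of all genes. The call was also lost without DEX mouse 1, 2 or 3. In the other 6 treatment groups 0 members were called by the quasi-likelihood test, beside 0.808% of all genes for JGT02 400 mg/kg, 0.0207% for JGT03 100 mg/kg, 0.677% for JGT03 400 mg/kg, 1.38% for JGT04 100 mg/kg, 2.04% for JGT04 400 mg/kg and 1.37% for RSV. Members with an unadjusted p under 0.05 numbered 2, 1, 7, 3, 2 and 2 in these, and DESeq2 called 2 for JGT03 400 mg/kg, 1 for JGT04 100 mg/kg and 0 for the others. The counts without the 3 libraries were 3 for JGT03 400 mg/kg (6.49% of all genes), 1 for JGT04 100 mg/kg (9.36%), and 0 for JGT02 400 mg/kg (5.7%), JGT03 100 mg/kg (1.17%), JGT04 400 mg/kg (11.3%) and RSV (9.47%).

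The lowest adjusted p among these was that of Psmd7, a 19S lid gene, with -0.23 ± 0.06 for JGT03 400 mg/kg (adjusted p = 0.0627) and -0.20 ± 0.06 for JGT04 100 mg/kg (adjusted p = 0.0832). Without the 3 libraries it passed in both, as did Psmb2 and Psmd8 for JGT03 400 mg/kg. Psmd8, which DEX raised, differed from DEX by -0.22 ± 0.10 on the log2 scale for JGT03 400 mg/kg, by -0.17 ± 0.10 for JGT02 400 mg/kg and by -0.17 ± 0.11 for JGT04 400 mg/kg, and by -0.18 ± 0.08 for the mean of the 6 extract groups (adjusted p = 0.338). That mean called 0 members beside 1.26% of all genes, with 5 under an unadjusted 0.05 and 0 by DESeq2. Over the 7 treatments the panel genes other than the immune ones ranged from -0.26, for Psme4 with JGT02 100 mg/kg, to 0.22, for Psme2 in the same group, and without the 3 libraries these were -0.05 and -0.01. The 400 mg/kg groups against those at 100 mg/kg gave 0 members beside 0.2% of all genes, with 0 members under an unadjusted 0.05 and 0 by DESeq2. The test between the 3 extracts gave 0 beside 0.753%, with 6 under an unadjusted 0.05 and 0 by DESeq2.

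In SO, all members called against DEX were higher with the treatment, in numbers that ranged from 2 with JGT02 100 mg/kg to 17 with RSV. The median log2 fold change over the members was 0.22 with RSV, 0.08 to 0.16 with JGT02 400 mg/kg, JGT03 and JGT04, and -0.03 with JGT02 100 mg/kg, beside -0.03 to 0.04 over all genes. With JGT02 100 mg/kg the called share of 4.35% was near the 4.8% of all genes called higher. In this group 14 members had their lowest SO group mean, as many as in DEX, among them Psmb5, at -0.12 against DEX. These means include mouse 5, with high immune markers and a core sum of 2338 CPM. Libraries of SO set 2 without the 3 had core sums of 2679 to 3034 CPM. How far the lowest means rest on mouse 5 was not tested. The share of all genes with their lowest mean in this group is not given here, so the count of 14 is not particular to the members. RSV called 17 of 46, beside 12.7% of all genes called and 5.11% called higher. The extracts called 2 for JGT02 100 mg/kg (8.82% of all genes called, 4.8% higher), 5 for JGT02 400 mg/kg (17.1%, 9.2% higher), 5 for JGT03 100 mg/kg (8.49%, 3.42% higher), 4 for JGT03 400 mg/kg (3.06%, 0.979% higher), 6 for JGT04 100 mg/kg (8.95%, 3.36% higher) and 3 for JGT04 400 mg/kg (4.58%, 1.57% higher). When the 3 were left out, RSV called 24 higher (36.7% of all genes), JGT02 400 mg/kg 5 higher and 1 lower (30.3%), JGT03 12 higher at 100 mg/kg (30%) and 13 higher and 1 lower at 400 mg/kg (27.5%), and JGT04 13 and 14 higher (31.2% and 22.2%). The RSV count was 8 without RSV mouse 3. These 7 comparisons share the 4 DEX libraries. The 17 comprised 5 of 7 constitutive beta ring genes, 3 of 7 alpha ring genes, 4 of 6 ATPases, 3 of 14 non-ATPases, Psmf1 and the chaperone Psmg2, and 0 of the 3 immune genes and 4 activators. The core sum was 3367 ± 194 CPM with RSV (n = 5), 114% of the NT mean, and the beta ring sum was 834 ± 57 CPM, 125% of it.

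Psmd13 had the lowest adjusted p with RSV, at 67.8, 64.7, 68.9, 71.9 and 63.1 CPM. All of these were above the DEX range of 50.6 to 58.3 CPM (0.30 ± 0.06, adjusted p = 0.000994). Psmb7 was at 148, 164, 139.6 and 130.5 CPM in DEX and at 206, 213, 253, 207 and 189 CPM with RSV. The groups did not overlap (0.55 ± 0.12, adjusted p = 0.00217), and the RSV libraries were also above the 157 to 174 CPM of NT. Psmb5 was at 79.6, 83.8, 78.6 and 71.0 CPM in DEX and at 85.0, 95.4, 109, 108 and 96.0 CPM with RSV. These groups did not overlap either (0.33 ± 0.09, adjusted p = 0.0124), though the call was lost without DEX mouse 4. Psmd2, a scaffold subunit of the 19S base, rose by 0.41 ± 0.09 (adjusted p = 0.00212). It shares 31.6% of its 31-base words with the gene Gm5422, so its count is uncertain. Psma2, an alpha ring gene, rose by 0.32 ± 0.08 (adjusted p = 0.00557), and Psmf1 by 0.29 ± 0.07 (adjusted p = 0.00606). Of the panel, Psmc4 also passed (0.21 ± 0.07, adjusted p = 0.0346), in only 3 of 9 fits, the call being lost without DEX mouse 1, 2 or 3 or RSV mouse 1, 3 or 4.

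Psmb7 and Psmd2 were called in all comparisons with DEX of JGT02 400 mg/kg, JGT03, JGT04 and RSV, and Psmd13 in all of these but JGT02 400 mg/kg. The log2 fold changes of Psmb7 against DEX were 0.35 ± 0.12 for JGT02 400 mg/kg, 0.46 ± 0.12 and 0.49 ± 0.12 for JGT03 at 100 and 400 mg/kg, and 0.49 ± 0.12 and 0.45 ± 0.12 for JGT04. These calls leaned on single libraries. Without DEX mouse 4 that of Psmb7 was lost for JGT02 400 mg/kg (where DEX mouse 1 did the same), for JGT03 at both doses and for JGT04 400 mg/kg. Without DEX mouse 3 it was lost for the 400 mg/kg groups of all 3 extracts. It was lost as well without mouse 1, 4 or 5 of JGT02 400 mg/kg, mouse 2 or 4 of JGT03 400 mg/kg, or mouse 1 or 2 of JGT04 400 mg/kg, and in 0 of the fits for RSV or JGT04 100 mg/kg. Psmd10 was called with JGT02 100 mg/kg (0.42 ± 0.09, adjusted p = 0.00442), at 9.09, 7.73, 8.26, 8.76 and 10.7 CPM, all above the 5.81 to 7.57 CPM of DEX. Psme4 was called with JGT02 400 mg/kg, at 299, 158, 141, 159 and 181 CPM against 102 to 122 CPM in DEX. The value of 299 CPM is that of mouse 1, the library with fast-fibre markers. The difference was 0.72 ± 0.14 with it (adjusted p = 0.000874), and Psme4 also passed without the 3 libraries (adjusted p = 5.19e-06).

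**Figure D4:**
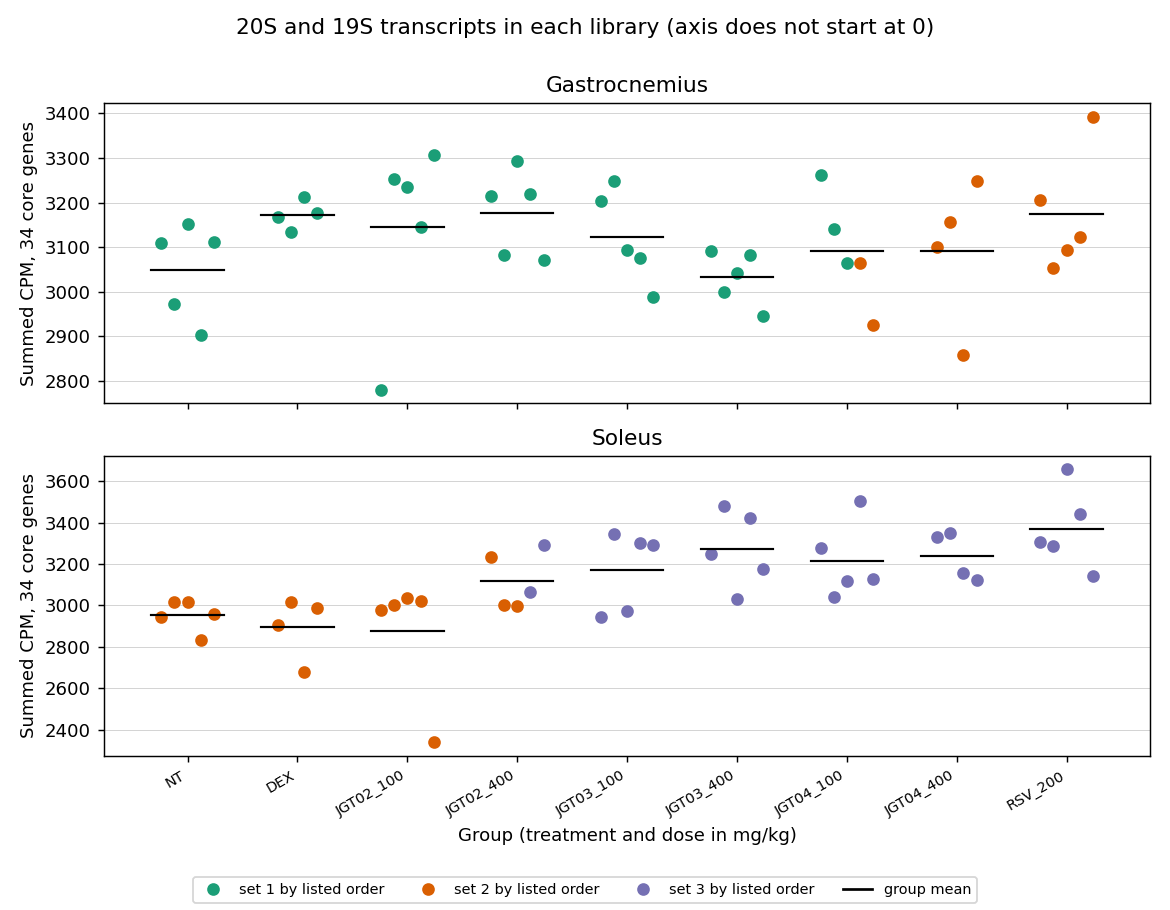
Summed CPM of the 34 genes of the 20S core and 19S cap in each library, by group, for gastrocnemius (top) and soleus (bottom), with group means as lines (axes do not start at 0) and colours for the set in listed order. In soleus set 3 lies at 2944 to 3657 CPM and set 2 at 2338 to 3234 CPM, and JGT02 400 mg/kg has libraries in both.

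These SO differences run together with the set of libraries. The mean core sum over SO libraries without the 3 was 2959 CPM in set 2 (15 libraries, 2679 to 3034) and 3247 CPM in set 3 (26 libraries, 2944 to 3657). Within JGT02 400 mg/kg, the only SO group in both, the 3 libraries of set 2 were at 3234 (mouse 1, with fast-fibre markers), 3004 and 2996 CPM and the 2 of set 3 at 3064 and 3294 CPM. Without mouse 1 the values of the sets did not overlap. The alpha ring sum was 508 to 545 CPM in the libraries of set 2 and 551 and 620 CPM in those of set 3. The beta ring sum was 636 to 702 CPM and 724 and 787 CPM, and neither sum overlapped even with mouse 1. The border of the sets was placed at a break in expression inside this group. A difference across it was therefore partly fixed beforehand, and these values are no independent test of the sets. With a set term in the fit, 0 members were called for JGT03, JGT04 or RSV against DEX. Of all genes 0% were called for JGT03 at either dose and JGT04 400 mg/kg, 0.027% for JGT04 100 mg/kg and 0.0203% for RSV, with members under an unadjusted 0.05 numbering 1 to 6. For JGT02 400 mg/kg, Psme4 and Psmc6 were called with the set term, beside 14.2% of all genes. The median SE of the members rose from 0.09 to 0.15 in them. The RSV change of Psmb7 was then 0.34 ± 0.20 (adjusted p = 0.674), that of Psmd2 0.34 ± 0.15 and that of Psma2 -0.01 ± 0.11. For these groups the set and the treatment cannot be told apart well, as the set term rests on the 5 libraries of JGT02 400 mg/kg. These 5 include mouse 1, with fast-fibre markers. The set term of Psme4 was -0.23 ± 0.19 with all libraries and 0.20 ± 0.09 without the 3. The median over members of the RSV change was 0.22 without the set term and 0.11 with it, beside -0.03 and 0.01 over all genes.

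The libraries of JGT02 100 mg/kg all lie in the set of DEX. A set term could therefore change little in this comparison, and it is no test of its calls. Psmd10 and the lid gene Psmd3 (0.23 ± 0.07, adjusted p = 0.0435) were called for this group with and without the set term. With that term 9.01% of all genes were called. The call for Psmd3 was lost without DEX mouse 1, 2 or 3 or JGT02 mouse 1, 2 or 4. Leaving the 3 out, 8 members were higher and 4 lower, beside 35.7% of all genes. Comparisons inside set 3 called 0 members. RSV against the mean of the JGT03 and JGT04 groups gave 0 members beside 0% of all genes, with a median of 0.08 over members and 5 members under an unadjusted 0.05. The largest difference there was that of Psmg1, a chaperone of alpha ring assembly (0.26 ± 0.09, adjusted p = 0.533). JGT04 against JGT03 gave 0 beside 0.0135%, with Psmd5 lowest (-0.25 ± 0.08, adjusted p = 0.292) and 2 members under an unadjusted 0.05. In GA, RSV against JGT04 400 mg/kg, both in set 2, gave 0 beside 0.0069%, with 0 under an unadjusted 0.05. DESeq2 called 0 members in each of these 3 as well.

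In the mean of the 6 SO extract groups, 6 members were higher than DEX, beside 13.9% of all genes called and 5.27% called higher. Without the 3 libraries 13 were higher and 1 lower (39.6%), and with the set term 0 were called (0.513%). They were Psmd10 (0.32 ± 0.08), Psmd2 (0.29 ± 0.07), Psmd13 (0.19 ± 0.05), Psmb7 (0.38 ± 0.10), Psmf1 (0.19 ± 0.06) and Psme4 (0.36 ± 0.12). The higher against the lower doses called 0 members beside 0% of all genes, with 4 members under an unadjusted 0.05 and 0 by DESeq2, and the largest differences were Psmb9 (0.28 ± 0.19) and Psme4 (0.18 ± 0.08). The test between the extracts called 15 members beside 12% of all genes, led by Psmb4 (adjusted p = 0.000671) and Psma2 (adjusted p = 0.00174), and 0 with the set term beside 0.027%. JGT02 and the other 2 extracts lie for the most part in different sets.

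**Figure D5:**
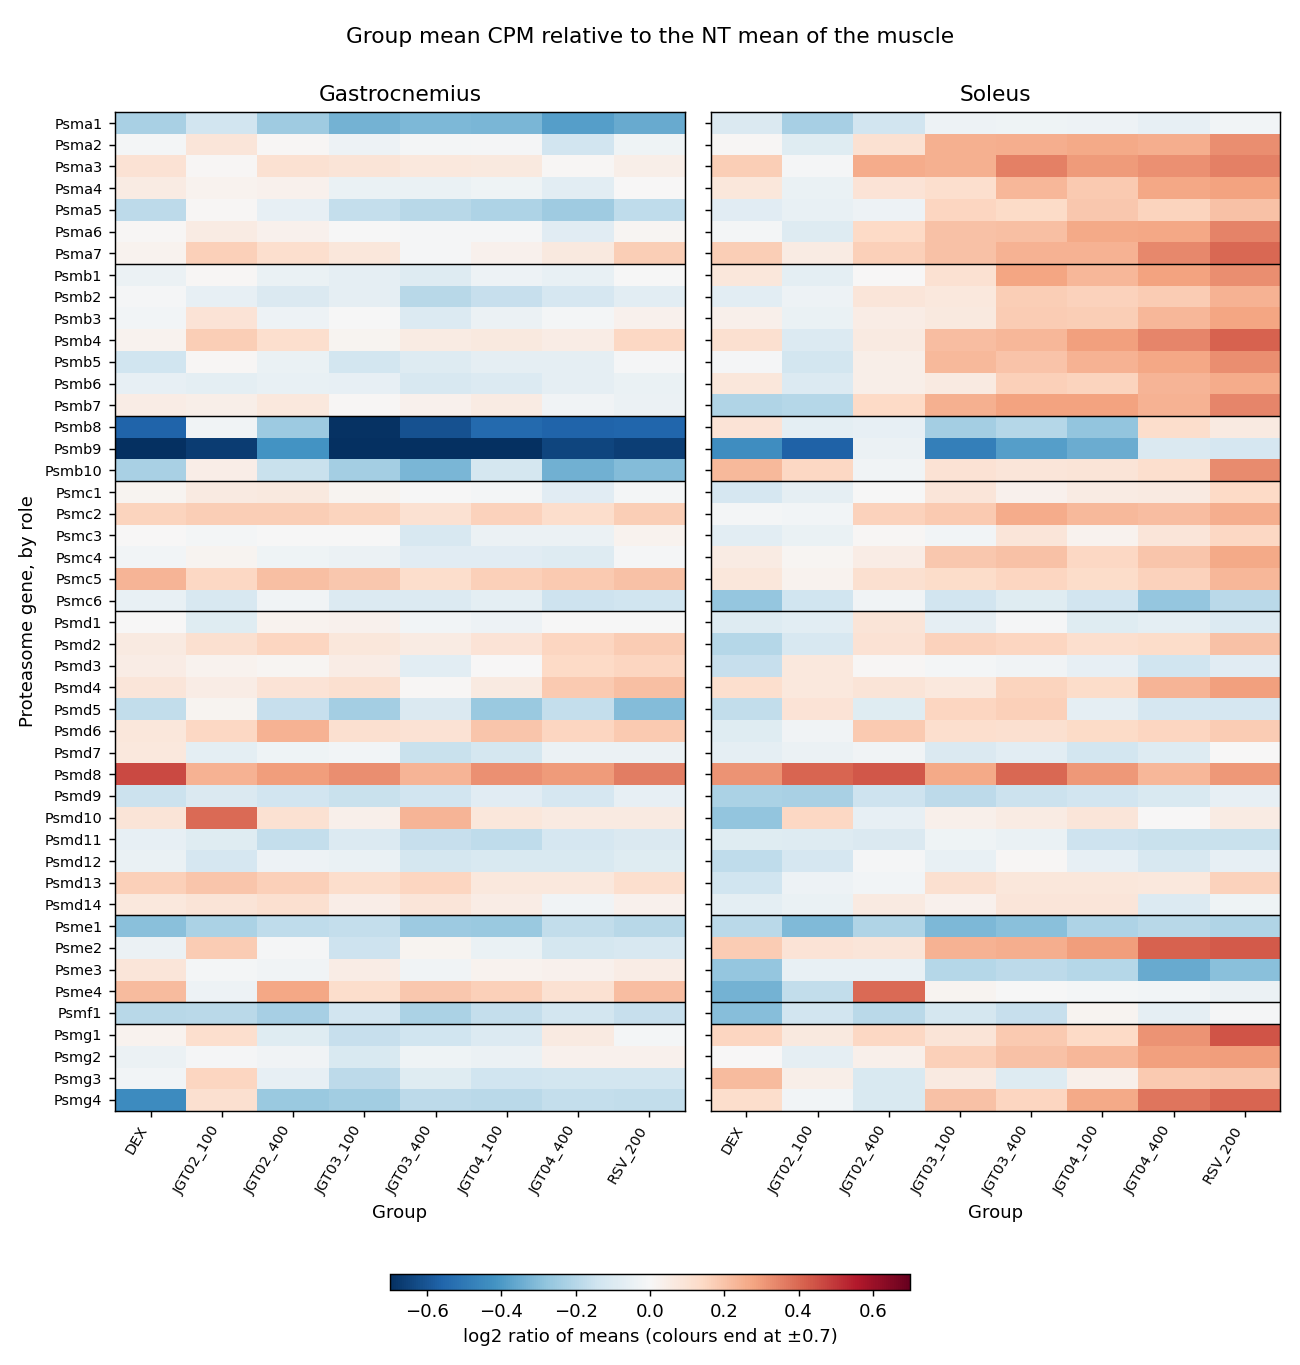
Log2 ratio of each group's mean CPM to the NT mean of the same muscle for the 46 genes (rows, by role) and the 8 groups given DEX (columns), with colours from -0.7 to 0.7. Psmd8 is above NT in all 8 groups of both muscles, and in soleus most rows of the alpha and constitutive beta rings, though not Psma1, are highest in the columns from JGT03 to RSV.

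Over the 9 groups the group means of a member varied by a median factor of 1.14 in GA and 1.26 in SO between the lowest and the highest. In GA the F test over the 9 groups called 7 members (27% of all genes), led by Psma1 (adjusted p = 0.000267), and in SO 28 (41.4%), led by Psmb4 (adjusted p = 4.81e-05). With the set term 4 members were called in GA (Psma1, Psmd13, Psmb2 and Psmd11) beside 18.3% of all genes, and 3 in SO (Psmd8, Psmf1 and Psme4) beside 16.7%. The narrowest range in GA was that of Psmb1, from 67.3 to 72.0 CPM, and the widest that of Psmb9, from 1.39 CPM in DEX to 2.72 CPM in NT. In SO the widest was that of Psme4, from 114 CPM in DEX to 187 CPM in JGT02 400 mg/kg.

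Within groups the core members moved together to different degrees. The correlation of a member's log2 CPM with the mean of the other core members, both as deviations from their group means, had a median of 0.45 over the 46 genes in GA and 0.57 in SO (43 libraries each, which share scaling and depth). It was highest for Psmb6 in GA (0.80) and Psma6 in SO (0.85), and lowest for Psmg4 in GA (-0.07) and Psmb8 in SO (-0.19). The non-member genes with a mean of at least 10 CPM most like the core mean were Eif3m (r = 0.76), Rps27l (0.74), 1110008F13Rik (0.69), Kansl2 (0.69) and Vcp (0.68) in GA, and Emg1 (0.85), Dcun1d5 (0.85), Gabarapl2 (0.84) and Mrps23 (0.83) in SO. Of these, Eif3m, Rps27l and Kansl2 were among the 5 most alike in GA also without the 3 libraries, and 0 of those named for SO were among its 5.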

How the data were processed

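The authors deposited 1 table of expected counts per gene symbol, per the labels. RSEM 1.3.3, STAR 2.7.3a, Trim Galore 0.6.5 and FastQC 0.11.9 are the tools, and GRCm38 the build, per the submitters' processing notes. Per the labels' protocols, the libraries were strand-specific. Settings, annotation and strand setting are not given in the sources used here.

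Expected counts were rounded, filtered with filterByExpr and scaled with TMM in edgeR 4.0.16 (R 4.3.3). Each muscle had 1 quasi-likelihood fit over its 9 groups, and both muscles together 1. P values were adjusted by Benjamini-Hochberg over all genes tested, and a gene is called under 0.05. All 46 members passed the filter in every fit. CPM use the TMM-adjusted totals of the muscle, or of all 86 libraries where the muscles are compared. Values per kb divide by the median length of the principal transcripts in GENCODE vM21, whose positions are printed. Tested on simulated data for DEX against NT, the fit recovered 54.4% of 1.5-fold and 79.7% of 2-fold changes among 14422 genes in GA, and 46.3% and 71.0% among 14728 in SO. The simulation gave each unchanged gene the same mean in all groups and held no sets. Changes below 1.5-fold, such as those of the members called with DEX, were not simulated.

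The members, lists, tests and alternatives were chosen with earlier results of these data known. The genes named are a panel of 10, the called members with the 6 lowest adjusted p in each direction, and, where none was called, the largest differences. Some genes outside the members that the rule would name are not reported here. The 3 comparisons inside a set, and the fit with both the set term and without the 3 libraries, were added after seeing the data. Samples were numbered mice in the labels, which makes replicates within a muscle separate animals. The titles use the same numbers in both muscles, and the main fit of both muscles treated all libraries as separate.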

Additional observations from a re-analysis of the deposited data

Results flagged for a closer look

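The summed CPM of the immune beta genes Psmb8, Psmb9 and Psmb10 stood apart in 6 libraries, each higher than the rest of its group by more than Dixon's 95% limit. It was 30.1 CPM in GA NT mouse 3 (the other 4 at 10.3 to 13.0), 29.0 in GA JGT02 100 mg/kg mouse 1, 20.8 in GA JGT02 400 mg/kg mouse 4, 13.8 in GA JGT04 100 mg/kg mouse 2, 39.3 in SO JGT02 100 mg/kg mouse 5 and 34 in SO JGT02 400 mg/kg mouse 4. The immune marker sum in SO JGT02 400 mg/kg mouse 4 was 31.1 CPM, and 11 antigen presentation genes summed to 494 CPM there. The activator pair Psme1 and Psme2 was also high in GA NT mouse 3, at 49.6 CPM, and in GA JGT02 400 mg/kg mouse 4, at 42.95 CPM. Psmb9 alone was at 6.58 CPM in GA NT mouse 3. The core sum was low in SO JGT02 100 mg/kg mouse 5, at 2338 CPM. Such a limit is passed by chance in about 1 in 20 groups, and 10 of 88 groups of values passed it. The DEX change differed between the muscles by -0.33 for Psmd13 and -0.38 for Psme3, as tested by the interaction.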

How the results depend on the processing

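Counts are of called members out of 46, with the count as reported first. Only comparisons that moved by over 1.5 times are named, all others kept within that. Leaving out the 3 libraries, an alternative added after seeing the data, gave 10 for 5 in GA DEX and in SO DEX, 0 for 1 in GA JGT02 100, 3 for 0 in GA JGT03 400, 1 for 0 in GA JGT04 100, the GA extract mean and the GA test between extracts, 17 for 7 over the 9 GA groups, 12 for 2 in SO JGT02 100, 12 for 5 in SO JGT03 100, 14 for 4 in SO JGT03 400, 13 for 6 in SO JGT04 100, 14 for 3 in SO JGT04 400, 14 for 6 in the SO extract mean and 14 for 2 in the interaction. The set term gave 0 for SO JGT03 and JGT04 at both doses, RSV, the extract mean and the test between extracts, 2 for SO JGT02 400, 3 and 4 over the 9 SO and GA groups, and 9 for 19 between the muscles. Both changes at once gave 0 for the same SO results and GA JGT02 100, 1 for GA JGT02 400, GA JGT04 100 and the GA extract mean, 2 for GA JGT03 400 and SO JGT02 400, 10 for GA DEX and the 9 SO groups, 11 for SO DEX, 12 for SO JGT02 100 and 14 for the interaction and the 9 GA groups. DESeq2 gave 2 for GA JGT03 400, 1 for GA JGT04 100, and 6 for the interaction and SO JGT04 400, and its size factors gave 1 for SO JGT02 100 and 4 for the interaction. No filter on low counts gave 0 for GA JGT02 100 and SO JGT04 400, 1 for the 9 GA groups, SO JGT02 100 and SO JGT03 400, 2 for GA DEX and SO JGT02 400, 3 for SO DEX, SO JGT03 100 and SO JGT04 100, 7 for the SO extracts and 11 for SO RSV. Fits of only the 2 groups gave 0 for GA JGT02 100, SO JGT02 100, SO JGT02 400 and SO JGT04 400, 1 for GA JGT04 100, and 2 for GA JGT03 400 and SO JGT03 400. The cause was not tested, except that fewer samples enter some fits. The set term reversed Psma2, to -0.092 for SO JGT03 100, -0.076 for SO JGT04 100 and -0.013 for SO RSV (-0.12, -0.10 and -0.030 also without the 3 libraries), and Psmg2 for SO RSV, to -0.055 with both changes.

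Leaving out 1 library gave 3 to 4 for GA DEX (lowest without NT mouse 2), 0 to 4 for GA JGT02 100, 0 to 1 for GA JGT03 400, the GA extract mean and the GA test between extracts, 4 to 17 over the 9 GA groups (lowest without NT mouse 5, highest without JGT02 100 mouse 1) and 0 for the other GA results. It gave 2 to 6 for SO DEX, 1 to 9 for SO JGT02 100, 1 to 5 for SO JGT02 400, 2 to 5 for SO JGT03 100, 0 to 4 for SO JGT03 400 and SO JGT04 400, 2 to 8 for SO JGT04 100, 8 to 18 for SO RSV, 2 to 14 for the SO extract mean, 8 to 22 between the SO extracts, 22 to 36 over the 9 SO groups, 16 to 21 between the muscles and 2 to 5 for the interaction. The lowest was without DEX mouse 3 for SO DEX, JGT02 400, JGT03, JGT04 400 and the extract mean. The highest was without JGT02 100 mouse 5 for SO JGT02 100, the extract mean, the extracts and the 9 groups.

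Replicate numbers are shared, and the main fits did not treat the samples as paired. Libraries of the same number had a median correlation of deviations of 0.004 in GA and 0.003 in SO, and 0.013 across muscles. These medians do not show whether GA and SO libraries of the same treatment and number came from the same mouse. With the replicate block the count was 0 for GA JGT02 100, and other counts stayed within 1.5 times. Psmb9 had the lowest mean of the 46, 2.41 CPM, followed by Psmg4 at 3.82 CPM, so relative counting error is largest for these.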

Other observations

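Genes that work with the proteasome differed between the untreated muscles too. Of 12 tested proteasome-associated genes 3 were higher and 6 lower in SO than in GA, among them the ligase gene Ube3c (-0.67 ± 0.08) and Akirin2, which helps import proteasomes into the nucleus (0.52 ± 0.06). Of 8 genes that control proteasome synthesis 3 were higher and 3 lower. Nfe2l1 was higher in SO (0.62 ± 0.17), and Ddi2, the protease that activates its product, was lower (-1.39 ± 0.17). Of 15 ubiquitin and shuttle genes 8 were lower, among them the shuttle factor gene Rad23b (-0.28 ± 0.07). With the set term 4 of the associated genes and 3 of the control genes were called.

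In SO with RSV, 3 of the 12 associated genes were higher than DEX, the assembly factor gene Pomp (0.29 ± 0.08), Uchl5 (0.27 ± 0.08) and Fbxo7 (0.33 ± 0.11), as was Vcp, the unfoldase gene (0.38 ± 0.08). With the set term 0 of these lists' genes were called. Of 9 endothelial markers 5 were lower with RSV, and their part in the proteasome values was not tested.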
